A study of Mus musculus with 3 samples.

Results

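Some stretches of acetylated chromatin were listed as 1 unbroken peak in one condition and as 2 or more separate peaks in the other. These joined-and-split domains were taken from the peak lists of histone H3 acetylated at lysine 27 (H3K27ac) in mouse pancreatic spheroids. A member was an autosomal peak under 15 kb wide that overlapped, by at least 1 bp, 2 or more separate peaks of the other list. The rule found 1494 post-caerulein peaks joined over split untreated peaks (4.02% of those eligible) and 1317 untreated peaks joined over split post-caerulein peaks (3.64%). These 2811 domains belong to lists that hold 76558 peaks in all (38793 post-caerulein and 37765 untreated). The members were chosen by the positions of the peaks themselves, so their number, widths, gaps and scores are descriptions and carry no test.

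The post-caerulein group was 1 H3K27ac library of spheroids grown from wild-type C57BL/6J mice treated earlier with caerulein, a cholecystokinin analogue that provokes acute pancreatitis. The untreated group was 1 H3K27ac library of spheroids from untreated mice of the same strain, and an input library of untreated spheroids is not analysed here. Spheroids are three-dimensional epithelial cultures, both were grown with EGF, and the number of mice behind each culture is not stated. Since each condition has a single library, differences carry neither replicate error nor p-value, and the read depth is unknown. The deposited peak scores depend on depth, so where scores of both lists are printed, each is to be read within its own list. As a check of the cell type, all 8 ductal markers had a peak within 1 kb of a gene end in both lists (Krt8, Krt18, Cftr and others). None of 8 acinar, 6 endocrine or 6 mesenchymal markers did in either list. Of the immune markers 3 of 6 had one in the post-caerulein and 2 of 6 in the untreated list, and 1 of 6 endothelial markers (Vwf) did in each.

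H3K27ac is laid down by the acetyltransferases p300 and CBP on nucleosomes beside active promoters and enhancers. A long acetylated stretch often holds several regulatory elements in a row, and nucleosome-poor start sites within it carry little histone signal. A peak caller reports a stretch as 1 peak while the signal stays above its threshold, so that a dip can part it into neighbouring peaks. A gap between split peaks is thus a stretch called acetylated in one library and not called in the other.

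In a few domains the gap in the split list lay over an annotated transcription start, and the promoters there are shown because they are the sequences at which the lists disagreed. Start sites of 9 protein-coding genes fell in the gaps of untreated peaks that a post-caerulein peak joined (0.602% of 1494 domains). Those of 4 genes fell in the gaps of post-caerulein peaks that an untreated peak joined (0.304% of 1317). The exact intervals, 0.276 to 1.14 and 0.083 to 0.776, overlap. Other gaps lay between peaks that both overlapped the other list but were not joined. At 100 to under 500 bp, 0.489% of these in the untreated and 0.418% in the post-caerulein list held a start site. Above 2 kb it was 1.42% and 1.47%. Gaps under joined peaks had the higher share in some length classes and the lower in others, with overlapping intervals in each. The promoters below come from RefSeq (build GRCm38.p6), run from 250 bases before to 50 after the start, and were picked after their values were seen. Capitals mark the bases that lie in the gap. The first 4 belong to domains joined after caerulein: Larp1, an RNA-binding regulator of translation (chr11:58008814-58009113, plus strand, an internal start of the gene), Pkdcc, a secreted kinase (chr17:83215033-83215332, plus strand), Il1rn, the interleukin-1 receptor antagonist (chr2:24345041-24345340, plus strand, an internal start), and Slc29a1, a nucleoside transporter (chr17:45597102-45597401, minus strand, an internal start).
Larp1: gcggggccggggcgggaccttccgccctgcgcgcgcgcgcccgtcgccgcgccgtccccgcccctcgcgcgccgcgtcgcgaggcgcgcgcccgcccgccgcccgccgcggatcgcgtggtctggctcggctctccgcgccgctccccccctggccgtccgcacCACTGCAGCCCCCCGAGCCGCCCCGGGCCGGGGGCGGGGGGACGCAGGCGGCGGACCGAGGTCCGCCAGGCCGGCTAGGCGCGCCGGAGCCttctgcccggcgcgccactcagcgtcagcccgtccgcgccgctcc
Pkdcc: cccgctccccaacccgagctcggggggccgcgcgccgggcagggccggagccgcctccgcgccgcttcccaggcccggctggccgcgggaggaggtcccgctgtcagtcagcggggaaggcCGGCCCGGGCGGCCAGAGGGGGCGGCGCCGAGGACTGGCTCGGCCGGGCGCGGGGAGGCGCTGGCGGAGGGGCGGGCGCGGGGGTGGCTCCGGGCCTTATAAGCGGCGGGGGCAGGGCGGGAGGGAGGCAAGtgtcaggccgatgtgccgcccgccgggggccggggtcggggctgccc
Il1rn: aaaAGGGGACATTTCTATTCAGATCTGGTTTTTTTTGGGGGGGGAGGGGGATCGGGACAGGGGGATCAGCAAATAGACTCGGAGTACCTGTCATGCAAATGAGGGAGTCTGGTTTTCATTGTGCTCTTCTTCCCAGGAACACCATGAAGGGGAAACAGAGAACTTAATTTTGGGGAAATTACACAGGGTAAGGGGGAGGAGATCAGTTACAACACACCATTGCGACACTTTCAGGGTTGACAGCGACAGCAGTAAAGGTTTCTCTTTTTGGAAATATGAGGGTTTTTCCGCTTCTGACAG
Slc29a1: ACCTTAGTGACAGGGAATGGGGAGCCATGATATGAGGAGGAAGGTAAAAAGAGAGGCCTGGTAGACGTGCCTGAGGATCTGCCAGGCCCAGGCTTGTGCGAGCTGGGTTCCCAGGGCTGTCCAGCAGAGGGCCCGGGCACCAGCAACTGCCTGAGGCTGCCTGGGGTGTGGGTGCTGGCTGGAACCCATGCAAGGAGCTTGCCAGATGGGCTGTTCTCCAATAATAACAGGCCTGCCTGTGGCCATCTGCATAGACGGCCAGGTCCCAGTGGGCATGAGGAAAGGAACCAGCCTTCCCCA

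The next 3 promoters belong to domains joined in untreated spheroids: Pwwp3a, a chromatin-reader gene (chr10:80226348-80226647, plus strand), Chpt1, a choline phosphotransferase (chr10:88503921-88504220, minus strand), and Pitpnm2, a phosphatidylinositol transfer protein (chr5:124249711-124250010, minus strand).
Pwwp3a: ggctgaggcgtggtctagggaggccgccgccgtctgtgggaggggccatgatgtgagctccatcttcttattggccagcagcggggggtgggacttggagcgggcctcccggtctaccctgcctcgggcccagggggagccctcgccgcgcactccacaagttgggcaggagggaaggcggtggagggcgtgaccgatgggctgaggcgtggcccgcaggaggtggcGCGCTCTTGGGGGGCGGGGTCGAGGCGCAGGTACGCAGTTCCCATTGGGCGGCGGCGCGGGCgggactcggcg
Chpt1: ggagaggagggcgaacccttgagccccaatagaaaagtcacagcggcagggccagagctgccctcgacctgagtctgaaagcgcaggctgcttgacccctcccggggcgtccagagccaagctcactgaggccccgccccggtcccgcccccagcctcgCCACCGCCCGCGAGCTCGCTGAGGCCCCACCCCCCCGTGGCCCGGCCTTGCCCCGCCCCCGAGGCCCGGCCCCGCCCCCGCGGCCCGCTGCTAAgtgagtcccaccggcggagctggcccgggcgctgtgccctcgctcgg
Pitpnm2: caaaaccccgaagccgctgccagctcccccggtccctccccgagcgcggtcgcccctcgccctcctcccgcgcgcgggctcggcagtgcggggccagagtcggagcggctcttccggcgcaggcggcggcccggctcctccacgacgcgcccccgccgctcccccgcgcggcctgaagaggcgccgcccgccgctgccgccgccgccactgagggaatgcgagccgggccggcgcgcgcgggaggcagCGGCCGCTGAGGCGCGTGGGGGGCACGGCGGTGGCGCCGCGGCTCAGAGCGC

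Among protein-coding genes, start sites in short gaps had more CpG dinucleotides around them than start sites in long gaps, with a limit of 250 bp that was set after the values were seen. Gaps under 250 bp held a start of 4 genes joined after caerulein (Larp1, Pkdcc, Rnf157, Cables2) and of the 3 genes shown for untreated spheroids. Their promoters had 42 to 61 CpG dinucleotides in the 300 bases and 69.0 to 85.3% GC in the post-caerulein-joined domains, and 29 to 53 CpGs and 72.7 to 82.0% GC in the untreated-joined ones. Over all 20085 autosomal promoters the median was 14 CpGs and 57.0% GC. Promoters in peaks matched to exactly 1 peak of the other list had a median of 22 CpGs (upper quartile 30) and 61.7% GC in each list. Gaps of 709 to 3984 bp held 7 start sites of 5 genes joined after caerulein, with 3 to 15 CpGs, and 1 gap of 828 bp held a protein-coding start site joined in untreated spheroids, with 2 CpGs. Start sites of other genes did not all follow this. Gm30575 started in a short gap of 104 bp joined in untreated spheroids and had 10 CpGs and 39.0% GC, whereas Phf2os1 started in a gap of 40 bp joined after caerulein and had 62 and 63 CpGs at its 2 start sites. The 6 others lay in gaps of 565 to 3040 bp and had 0 to 3 CpGs. At Larp1 a post-caerulein peak of 4566 bp bridged 91 bp between untreated peaks of 1955 and 3071 bp. Larp1 was joined in both directions, since untreated peaks of 8183 and 9490 bp in the gene bridged post-caerulein gaps of 1651 and 663 bp. A further post-caerulein peak there, of 4437 bp, bridged 283 bp. At Pkdcc a post-caerulein peak of 2024 bp bridged 132 bp between untreated peaks of 1062 and 9094 bp, so the joined peak was the narrower object there. At Slc29a1 a post-caerulein peak of 5863 bp (chromosome 17, 45594507 to 45600369, score 951.70) spanned 2593 bp between weak untreated peaks of 1466 and 1329 bp, with scores of 61.32 and 81.20.

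Il1rn, which encodes a secreted blocker of interleukin-1 signalling, had 2 post-caerulein-joined domains side by side and none in the other direction. The first, of 8160 bp (chromosome 2, 24340762 to 24348921), began at the same base as an untreated peak of 4282 bp and bridged 709 bp to an untreated peak of 3469 bp. Both internal start sites of the gene in that stretch, 80 bases apart, lay inside those 709 bp. The second, of 6812 bp, bridged 478 bp between untreated peaks of 4260 and 1720 bp and reached an end of the gene. These domains were named after their values were seen.

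Promoters inside joined peaks as a whole had CpG counts close to those in peaks matched to exactly 1 peak of the other list (one-to-one peaks). The median CpG count was 23 over 461 promoters in post-caerulein-joined peaks, against 22 over 9757 promoters in one-to-one post-caerulein peaks. It was 22.5 over 398 promoters in untreated-joined peaks, against 22 over 9797 in one-to-one untreated peaks. The 4 short motifs below were searched on both strands, without regard to overlap between them. TGANTCA, the AP-1 motif, was found in 4.34% of promoters in post-caerulein-joined peaks and in 4.90% of those in one-to-one peaks. The untreated-joined and one-to-one untreated peaks gave 7.04% (28 promoters) and 4.80%, and all autosomal promoters 7.06%. CCAAT was found in 34.7% of promoters in post-caerulein-joined and 38.02% of those in one-to-one post-caerulein peaks, in 35.2% and 37.9% for untreated-joined and one-to-one untreated peaks, and in 38.1% of all promoters. In the same order GGGCGG was found in 67.2% and 66.8%, 65.3% and 67.1%, and 47.0% of all, so both joined and one-to-one peaks stood above all promoters. TATAAA was found in 6.94% and 6.27%, 9.30% and 6.17%, and 12.7% of all. Several promoters can belong to 1 gene, so these shares are not over independent sequences.

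Joined domains also covered microRNA genes, with 9 hairpins in 7 post-caerulein-joined peaks and 7 hairpins in 7 untreated-joined peaks. None lay in a gap, but gaps took up a median of only 4.75% and 3.50% of the joined width. Hairpins in other peaks were not counted, so these numbers do not set joined peaks apart. Mature products of 5 of these hairpins, picked after the values were seen, are shown with the seed (bases 2 to 8) in capitals. The let-7 pair shares 1 seed, and miR-194 and miR-192 are made from 1 cluster and are characteristic of gastrointestinal epithelium. miR-205 is an epithelial microRNA that represses Zeb factors.
mmu-let-7b-5p: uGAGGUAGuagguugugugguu
mmu-let-7c-5p: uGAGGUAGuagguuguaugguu
mmu-miR-192-5p: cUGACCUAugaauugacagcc
mmu-miR-194-5p: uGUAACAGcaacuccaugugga
mmu-miR-205-5p: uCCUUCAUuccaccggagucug

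Mirlet7c-2 and Mirlet7b (chromosome 15, 85706603 to 85707403) lay under 1 post-caerulein peak of 14194 bp, which spanned a gap of 224 bp between untreated peaks of 4497 and 13134 bp. Mir194-2 and Mir192 (chromosome 19, 6264643 to 6264932) lay under a post-caerulein peak of 10733 bp, which joined strong untreated peaks of 4409 and 4978 bp (scores 3100 and 3217.38) across 391 bp. Mir205 (chromosome 1, 193507463 to 193507530) went the other way. There the post-caerulein list had peaks of 2285 and 2102 bp with scores of 373.96 and 90.31, parted by 1668 bp, and the untreated list 1 peak of 7947 bp with a score of 3100. The untreated peak at Mir205 covered 1 long stretch in which the post-caerulein list held 2 shorter peaks, both scored under their own list's median of 526.37.

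Joined peaks made up a few percent of each list. Of 37167 autosomal post-caerulein peaks under 15 kb, 4.02% were joined (exact 95% binomial interval 3.82 to 4.22), and of 36171 untreated peaks, 3.64% (3.45 to 3.84). These intervals cover counting error over peaks and not the spread between cultures. Most joined peaks overlapped exactly 2 peaks of the other list, 1388 in the post-caerulein and 1230 in the untreated list. In the post-caerulein list 103 overlapped 3 and 3 overlapped 4. In the untreated list 80 overlapped 3, 6 overlapped 4 and 1 overlapped 5. Over single chromosomes the joined share ran from 3.05% (chromosome 16) to 5.20% (chromosome 3) in the post-caerulein list and from 2.76% (chromosome 18) to 4.77% (chromosome 6) in the untreated list. The lists differ in their scores, which reached 3100 or more in 5828 post-caerulein and 8440 untreated peaks, and the part of this in the joining was not tested. Most of these peaks hold exactly the same value, 5499 post-caerulein and 8136 untreated peaks at 3100, with 329 and 304 above it, so the score does not rank the strongest peaks well.

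The gaps were mostly short. The longest gap inside a domain had a median of 294 bp (quartiles 102 and 742.5 bp) where the post-caerulein peak was joined and 177 bp (60 and 501 bp) where the untreated peak was joined. It was under 100 bp, less than the DNA of a single nucleosome, in 24.6% of post-caerulein-joined domains (368) and 35.8% of untreated-joined domains (472). It was 1 kb or more in 17.3% (259) and 12.1% (160), and 2 kb or more in 61 and 39 domains. The gaps together took up a median of 4.75% of the width of a post-caerulein-joined peak and 3.50% of an untreated-joined peak.

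**Figure D1:**
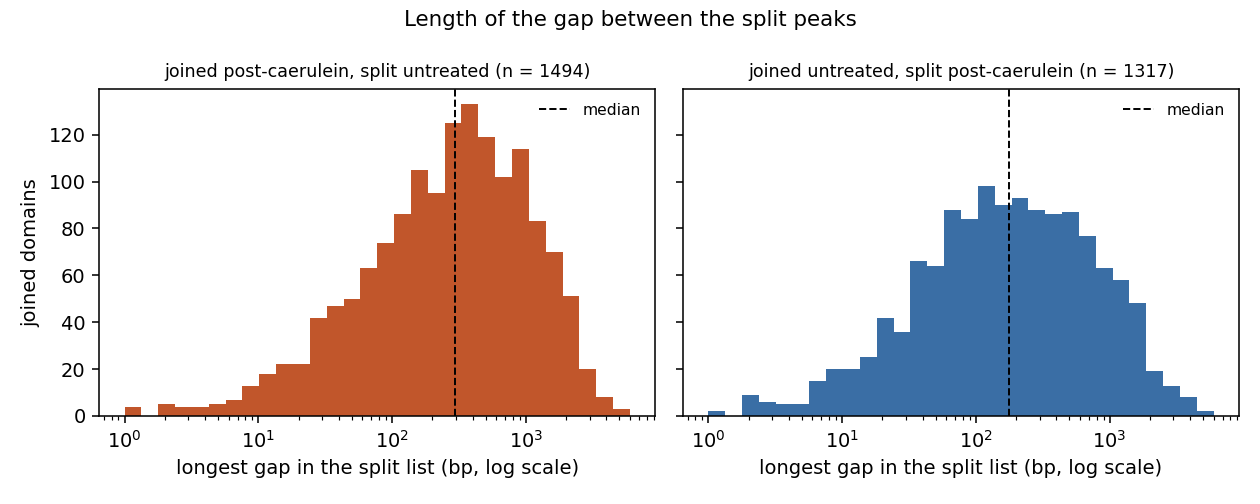
Histograms of the longest gap (bp, log scale) between the split peaks of each domain, for post-caerulein-joined domains on the left and untreated-joined domains on the right; the dashed lines mark the medians of 294 and 177 bp. In 61 and 39 domains the gap is 2 kb or longer.

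The same gaps can be counted from the split side, over all neighbouring peaks whose gap was under 5.5 kb and which both overlapped a peak of the other list. A single post-caerulein peak of any width bridged 66.8% (63.4 to 70.1) of the untreated gaps under 100 bp, and a single untreated peak bridged 61.9% (58.7 to 65.0) of the post-caerulein gaps of that size. For gaps of 100 to under 500 bp the shares were 45.0% (42.7 to 47.3) for post-caerulein peaks and 36.2% (34.1 to 38.5) for untreated peaks. For 500 bp to under 1 kb they were 27.3% (24.9 to 29.8) and 18.9% (16.8 to 21.2), and for 1 kb to under 2 kb 13.7% (12.3 to 15.3) and 8.61% (7.39 to 9.96). In each of these bins the post-caerulein share was the higher, and from 100 bp to 2 kb the intervals did not overlap. Above 2 kb 2.34% and 1.54% were bridged.

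**Figure D2:**
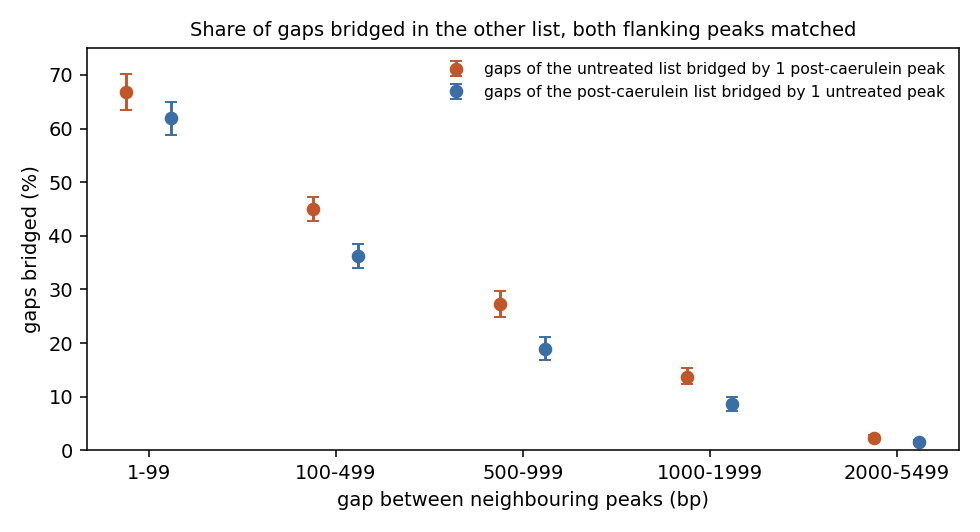
Percentage of gaps between neighbouring peaks of one list that 1 peak of the other list bridged, by gap length in bp, with exact 95% binomial intervals as bars; post-caerulein peaks bridging untreated gaps in orange, untreated peaks bridging post-caerulein gaps in blue. The shares run from 66.8% and 61.9% below 100 bp to 2.34% and 1.54% above 2 kb, with the post-caerulein point above the untreated point in each bin.

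A joined peak was not always the wider object. It exceeded the outer span of the peaks it overlapped in 57.6% of post-caerulein-joined domains (55.1 to 60.2) and 47.0% of untreated-joined domains (44.3 to 49.7). In the others the joined peak was no wider than the span of the split peaks. The joined width minus the summed width of the split peaks had a median of 510.5 bp in the post-caerulein-joined and 175 bp in the untreated-joined domains. In the extreme cases a narrow peak touched the rim of a very wide one, so that the difference came to -44747 bp and -53265 bp. Chains, in which a split peak itself overlapped 2 or more peaks of the joined list, made up 21.5% of post-caerulein-joined (321) and 24.8% of untreated-joined (327) domains. Aff1, an elongation factor gene, had 4 joined peaks in each direction, all in such chains. At Tspan8, a tetraspanin of epithelial tumours, a post-caerulein peak of 11308 bp and an untreated peak of 14349 bp overlapped. Each also covered all or nearly all of a second, smaller peak of the other list.

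**Figure D3:**
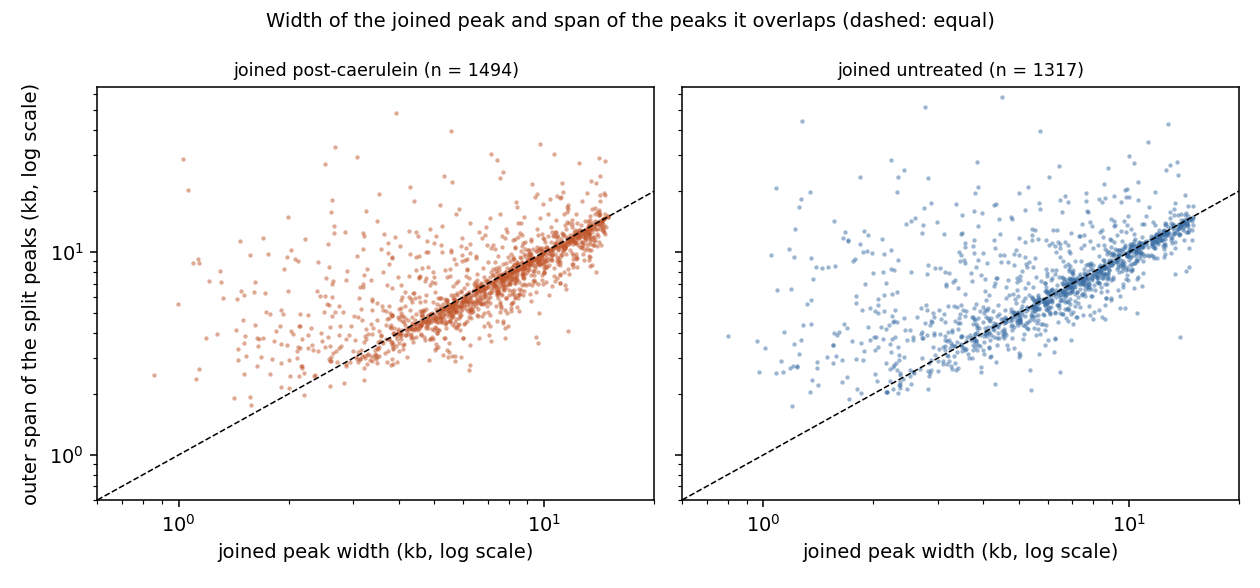
Width of each joined peak (horizontal axis, kb, log scale) and outer span of the split peaks it overlaps (vertical axis, kb, log scale), post-caerulein-joined domains on the left and untreated-joined domains on the right; each point is 1 domain and the dashed line marks equality. Points below the line, where the joined peak is wider, are 57.6% on the left and 47.0% on the right.

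Joined peaks were wide and high-scored for their list, and the split peaks were unequal in width. Their median width was 6946.5 bp in the post-caerulein and 6400 bp in the untreated direction, against 2696 and 2612 bp for one-to-one peaks. The joined share grew with width, from 0.46% and 0.67% of peaks under 2 kb to 30.7% and 25.9% of peaks from 10 to 15 kb. A score of 3100 or more was held by 36.0% of joined and 16.1% of one-to-one post-caerulein peaks, and by 46.2% of joined and 24.0% of one-to-one untreated peaks. Scores were not compared within width classes, so the part of width in this difference was not tested. The narrowest split peak had a median of 52.7% of the width of the widest in post-caerulein-joined and 49.9% in untreated-joined domains. In 48.5% and 50.2% of domains the weakest split peak lay in the lowest 25% of its own list's scores. In 21.8% and 20.8% every split peak scored above its list's median. The weakest of 2 or more peaks is low more often than a single peak is. These shares were not set against other neighbouring peaks, so they do not show that split peaks are weak.

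At the 15 kb limit the values ran on without a break. The widest members were post-caerulein peaks of 14944 bp near Pcsk6, 14943 bp at Gsdmd and 14900 bp near Psapl1, and untreated peaks of 14997 bp near Rbx1, 14996 bp near Chrd and 14971 bp at Prag1. Just beyond it lay joined post-caerulein peaks of 15013 bp at Sys1, 15018 bp and 15042 bp (near Magi1), and untreated peaks of 15017 bp at Igsf9 and 15049 bp at Mall. Of the autosomal peaks of 15 kb and over, 44.4% (336 of 757) of post-caerulein and 34.1% (230 of 675) of untreated peaks overlapped 2 or more peaks of the other list.

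Gene ends lay in a smaller share of joined than of one-to-one peaks of the same width. The rule made no use of genes. An end of a protein-coding gene lay inside 28.1% of post-caerulein-joined peaks (25.8 to 30.5) and 30.8% of one-to-one post-caerulein peaks (30.3 to 31.3), and inside 28.6% of untreated-joined (26.2 to 31.2) and 30.2% of one-to-one untreated peaks (29.7 to 30.7). Joined peaks are much wider, however, and width classes were therefore compared. Among peaks of 4 to 6 kb the share was 21.4% (17.2 to 26.1) of post-caerulein-joined against 33.6% (32.1 to 35.0) of one-to-one peaks, and 24.0% (19.1 to 29.5) of untreated-joined against 35.0% (33.5 to 36.4) of one-to-one peaks. Among peaks of 10 to 15 kb it was 36.9% (31.7 to 42.3) against 44.6% (41.0 to 48.2), and 38.1% (32.2 to 44.3) against 43.8% (40.2 to 47.4). For the post-caerulein list the joined share was the lower in all 6 width classes, and likewise for the untreated list. The intervals did not overlap in the classes below 8 kb in the post-caerulein list and in those from 2 to 6 kb in the untreated list, and they overlapped in the other classes. A further 40.4% of post-caerulein-joined and 40.8% of untreated-joined peaks lay inside a gene body without reaching an end, and 31.5% and 30.6% lay outside gene bodies.

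The gaps themselves seldom held a gene end, in 12 of the 1494 post-caerulein-joined domains (0.803%, 0.416 to 1.399) and 18 of the 1317 untreated-joined domains (1.37%, 0.81 to 2.15). With peaks less than 500 bp apart merged the shares were 2.51% and 3.83%. Among gaps of 1 to 2 kb in the untreated list, a gene end lay in 1.00% (0.12 to 3.55) of gaps bridged by a joined post-caerulein peak, against 3.50% (2.70 to 4.45) of gaps with matched peaks and no bridge. In the post-caerulein list 2.46% (0.51 to 7.02) of bridged and 2.86% (2.13 to 3.75) of unbridged gaps held one. Above 2 kb the shares were 1.64% (0.04 to 8.80) of bridged and 8.98% (8.15 to 9.86) of unbridged untreated gaps, and 10.3% (2.87 to 24.2) of bridged and 9.01% (8.15 to 9.92) of unbridged post-caerulein gaps. The intervals of bridged and unbridged gaps overlapped in each case.

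The longest gap bridged after caerulein lay at Fabp5. At Fabp5, a fatty acid-binding protein (chromosome 3, 10012585 to 10016610), the post-caerulein list had 1 peak of 12902 bp (10011346 to 10024247, score 2903.79), and the untreated list peaks of 3552 and 3801 bp with scores of 906.72 and 1963.67. The 5424 bp between them hold an end of Fabp5, and with 10 kb on each side 14619 bp were covered after caerulein and 7353 bp in untreated spheroids. The outer limits of the domain were close, since the post-caerulein peak exceeded the span of the untreated peaks by 125 bp. At Car12, a membrane carbonic anhydrase of duct-like epithelia, a post-caerulein peak of 11385 bp (chromosome 9, 66717420 to 66728804) stood over untreated peaks of 2100 and 4443 bp, 3987 bp apart.

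Of the further long gaps, Magi1, a junctional scaffold, had a post-caerulein peak of 13793 bp across a gap of 4664 bp between untreated peaks of 6823 and 5064 bp, in a chain. A post-caerulein peak of 8249 bp, 62469 bp from the nearest end of Myc, had a low score of 214.95 and bridged 4530 bp between untreated peaks scored 136.56 and 87.34. Slc16a12, a monocarboxylate transporter family member, had a gap of 4381 bp, and a peak with its nearest gene end 120654 bp away, at Tomm20, had one of 4099 bp. Inside the body of Mecom, a zinc-finger regulator, post-caerulein peaks of 13232 bp and 13306 bp bridged 3587 and 1454 bp, 232843 and 205824 bp from the nearest end of a gene. There peaks covered 27993 and 23374 bp after caerulein and 11867 and 12009 bp in untreated spheroids with 10 kb on each side. A further Mecom peak of 11474 bp after caerulein bridged 1927 bp. The remaining one of the 8 longest lies at a predicted gene.

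The longest gaps bridged in untreated spheroids were of like size. At Gltp, a glycolipid transfer protein gene, the post-caerulein list had peaks of 4349 and 3497 bp with scores of 574.58 and 2677.68, and the untreated list 1 peak of 14046 bp (chromosome 5, 114677382 to 114691427, score 3100). The gap was 5245 bp. Fmo2, a flavin-containing monooxygenase, had post-caerulein peaks of 2198 and 1487 bp under an untreated peak of 10182 bp, and 3685 bp were covered after caerulein against 14235 bp in untreated spheroids with 10 kb on each side. Near Slc6a6, the taurine transporter gene, the post-caerulein list had peaks of 1179 and 1529 bp with scores of 58.08 and 66.09, and the untreated list 1 peak of 10334 bp with a score of 3100. In this last domain the post-caerulein pieces were close to the lowest score of their list, 50.01. Insyn1 (4214 bp), Slc25a24 (4066 bp), Adipor2 (3964 bp), St3gal3 (3825 bp) and Mphosph8 (3487 bp) completed the 8 longest gaps.

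**Figure D4:**
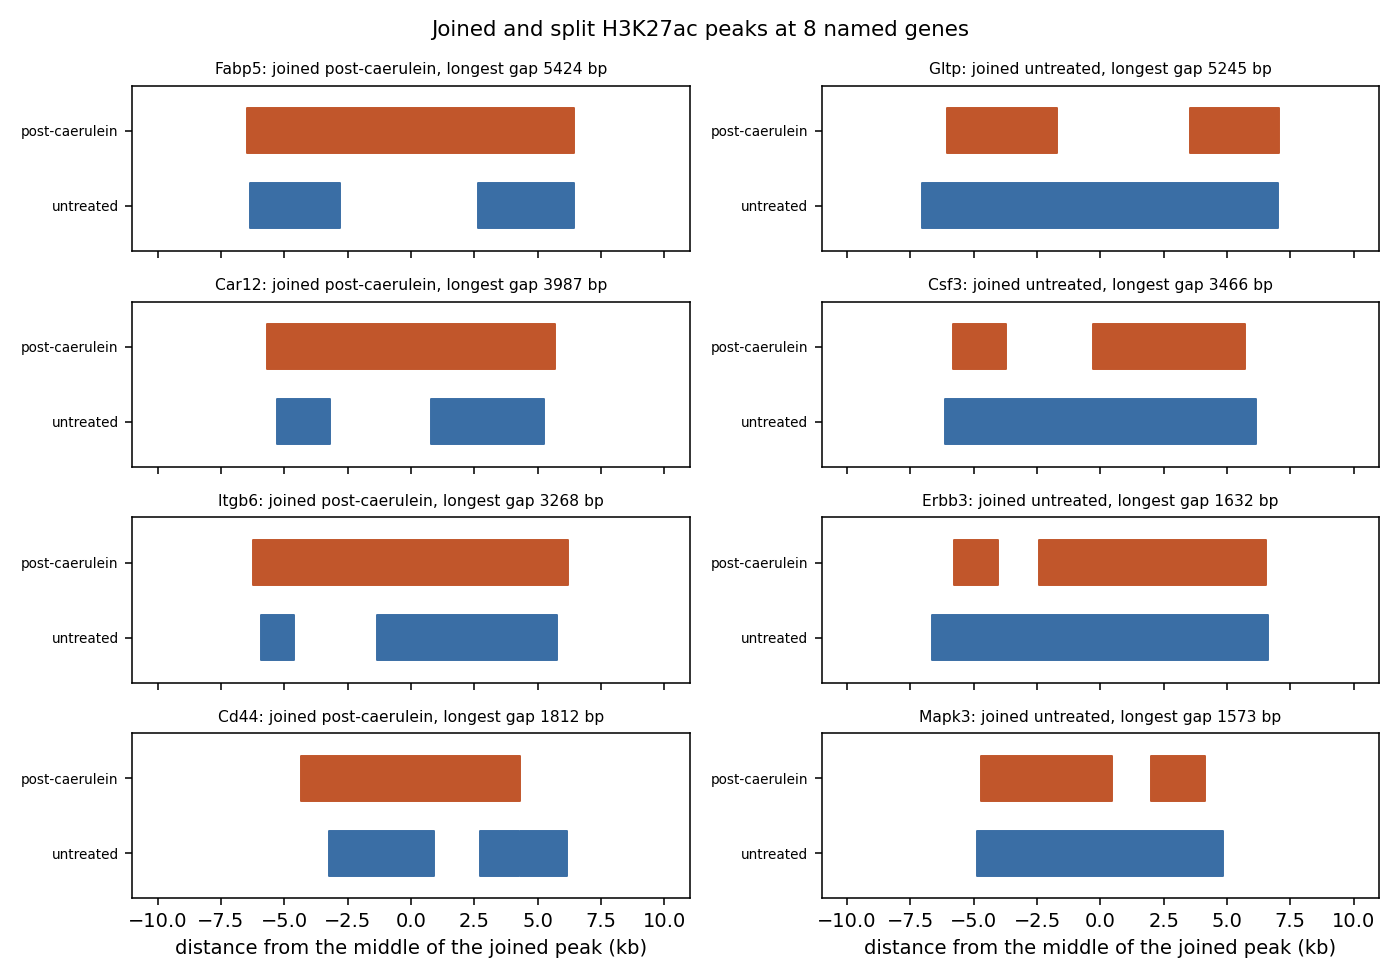
Maps of 8 named domains, with post-caerulein peaks in orange above untreated peaks in blue and the distance from the middle of the joined peak in kb on the horizontal axis. The left column shows domains joined after caerulein at Fabp5, Car12, Itgb6 and Cd44 and the right column domains joined in untreated spheroids at Gltp, Csf3, Erbb3 and Mapk3; the longest gaps run from 1573 bp at Mapk3 to 5424 bp at Fabp5. At Cd44 a pair of untreated peaks 28 bp apart appears as 1.

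The domains cut into most pieces had 3 to 5 split peaks. At Rapgef1, an exchange factor for Rap1, 1 post-caerulein peak of 14707 bp stood over 4 untreated peaks of 2230 to 3702 bp, all with scores between 639.19 and 728. At Arhgap21, a GTPase-activating protein, 14575 bp stood over 4 untreated peaks with scores from 69.40 to 1535.86. Rabepk, a Rab effector, had 10782 bp over 4, and Cdc42, a small GTPase of cell polarity, and Cul3, a ubiquitin ligase scaffold, 13906 and 10603 bp over 3 each. The Cul3 peak only touched the rim of an untreated peak of 1672 bp and was part of a chain. In the untreated direction, 5 post-caerulein peaks of 837 to 6221 bp near B4galt6, a glycosyltransferase gene, stood under 1 untreated peak of 13871 bp. No gap there exceeded 92 bp, and the covered lengths with 10 kb on each side were 18604 bp after caerulein and 17486 bp in untreated spheroids. Gabrp, Kctd14, Chrd, a BMP antagonist, and Sptbn1, a spectrin, had 4 post-caerulein peaks each under 1 untreated peak of 12127, 10769, 14610 and 10809 bp.

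The highest-scored domains with a gap of 500 bp or more were ranked among the few peaks above the pile-up of scores at 3100, so their order says little about strength. After caerulein they were the Mecom peak of 13306 bp (score 3191.28), a peak of 7617 bp near Tlr3, the receptor for double-stranded RNA, and peaks at Cutc (13158 bp), near Ggta1 (12388 bp) and at Gatad2a (9575 bp), a subunit of the NuRD complex. The untreated peaks split at Gatad2a, of 3237 and 3719 bp, had scores of 3100 and 1953.92 and were 2323 bp apart. In untreated spheroids they were peaks at Nmt2, an N-myristoyltransferase (10580 bp), Ralgapb (11454 bp), near Ppp1cb (5987 bp), within Pdlim1 (13295 bp) and at Kctd14. The post-caerulein peaks split at Ralgapb had scores of 2098.61 and 3100, whereas those near Ppp1cb had 116.47 and 1460.19.

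Joined peaks were assigned to the protein-coding gene with the nearest end within 100 kb. A gene said to have a joined peak can thus lie some distance from it. In this way 1124 genes had a post-caerulein-joined peak (5.44% of the 20665 autosomal genes) and 1052 an untreated-joined peak (5.09%). Both kinds were found at 340 genes, 30.2% of the genes with a post-caerulein-joined peak and 32.3% of those with an untreated-joined peak. Among all genes with an assigned peak, 9.13% had a post-caerulein-joined and 8.58% an untreated-joined peak. Chains can count in both directions by the rule, so part of this sharing is built in. The part of the number of peaks per gene was not tested. A gap of at least 500 bp was found at 434 genes in post-caerulein-joined and at 297 in untreated-joined peaks, and one of at least 1 kb at 217 and 149 genes. At 48 genes there were 3 or more joined peaks in at least 1 direction.

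Several of these genes, named after their values were seen, leaned to one side. Pdlim5, an actin-associated scaffold, had 5 post-caerulein-joined peaks among 14 post-caerulein peaks and 1 untreated-joined peak among 17. The gaps under the post-caerulein peaks were 7, 37, 56, 281 and 1363 bp. Those with gaps of 7 and 56 bp only touched the rim of an untreated peak. Ubl3, Glis3, a zinc-finger factor expressed in pancreatic ducts, and Phldb2, a cortical anchor, had 4 post-caerulein-joined peaks each and no untreated-joined one. A joined Phldb2 peak only touched the rim of an untreated peak of 934 bp. Mprip had 4 and 1. On the untreated side, Gclc, the catalytic subunit of glutathione synthesis, had 0 post-caerulein-joined and 3 untreated-joined peaks. One of these, of 2777 bp, overlapped only the end part of a post-caerulein peak of 49146 bp. Tnfrsf21 had 2 and 4 and the scramblase gene Ano6 also 2 and 4. An untreated-joined Tnfrsf21 peak, with a gap of 6 bp, only touched the rim of a post-caerulein peak of 2612 bp.

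Gene lists for the tissue and the injury were written with earlier results of these data known. Of 366 autosomal list genes, 57 had a post-caerulein-joined peak (15.6%) and 46 an untreated-joined peak (12.6%). List genes carry many peaks, and the shares over peaks were closer to the background, with 78 of 1233 post-caerulein peaks joined (6.33%, 5.03 to 7.83) against 1343 of 33576 assigned post-caerulein peaks overall. For untreated peaks it was 52 of 1185 (4.39%, 3.29 to 5.72), against 3.67%. A gap of 1 kb or more was found at 14 list genes on the post-caerulein and 6 on the untreated side.

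**Figure D5:**
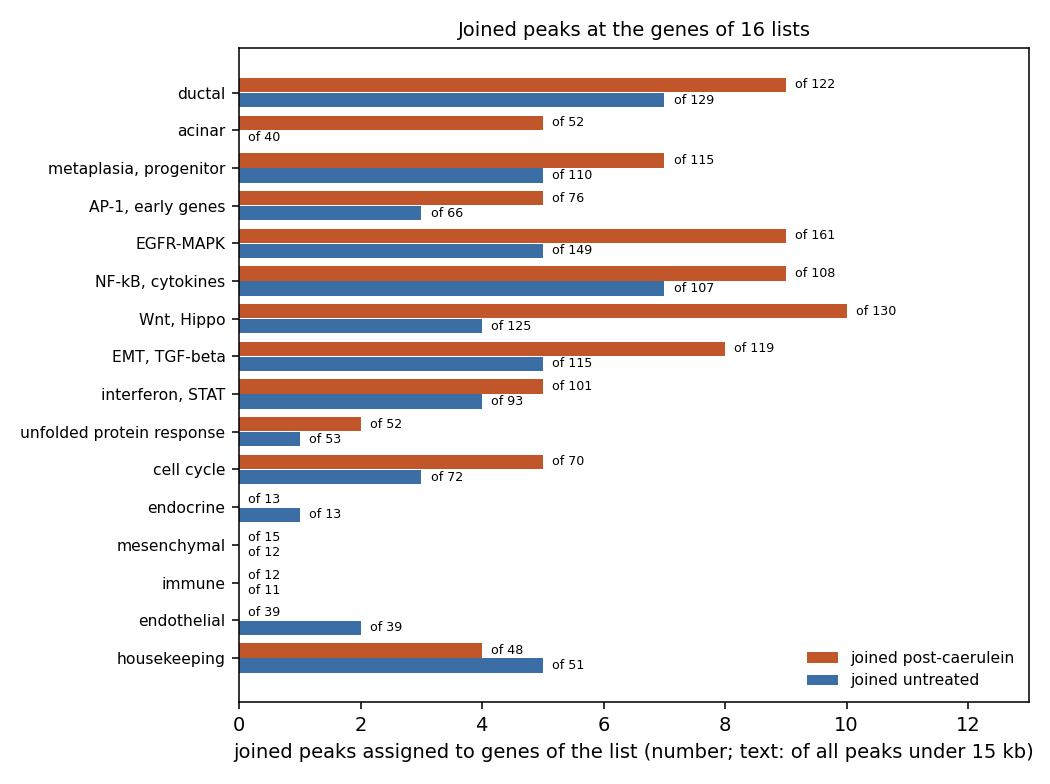
Number of joined peaks assigned to the genes of 16 lists, post-caerulein-joined in orange above untreated-joined in blue, with the number of all peaks under 15 kb at those genes printed beside each bar. The largest bar is 10 of 130 post-caerulein peaks at Wnt and Hippo genes, and the mesenchymal and immune lists have none in either direction.

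Ductal genes were joined in both directions, 6 of 26 after caerulein and 5 in untreated spheroids. This came to 7.38% (3.43 to 13.5) of their post-caerulein and 5.43% (2.21 to 10.9) of their untreated peaks, and both intervals hold the shares over all assigned peaks, 4.0% and 3.67%. Car12 had a gap above 1 kb on the post-caerulein side, and Epcam, the epithelial adhesion molecule, had 2 post-caerulein-joined peaks with gaps of 353 and 11 bp. These Epcam peaks lay 62964 and 20813 bp from the nearest end of the gene. Slc4a4, the sodium bicarbonate cotransporter of ducts, had post-caerulein peaks of 1680 and 1895 bp, 1298 bp apart, under 1 untreated peak of 7495 bp. Slc4a4 was joined the other way too, by a post-caerulein peak of 14611 bp over untreated peaks of 844 and 13400 bp, 257 bp apart. Krt7 had an untreated-joined peak of 8140 bp with a gap of 482 bp, 9397 bp from the nearest end of the gene. Of the acinar list, Nr5a2, Gata6 and Mecom, all transcription factors, had post-caerulein-joined peaks, 5 of 52 peaks in all (9.62%, 3.20 to 21.0), and 0 of 40 untreated peaks at acinar genes were joined (exact upper bound 8.81%). These intervals overlap each other, and each holds its share over all assigned peaks. At Nr5a2 the post-caerulein peak of 8539 bp bridged only 49 bp between untreated peaks scored 3202.21 and 261.55, but exceeded their span by 3398 bp.

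The list of 24 metaplasia and progenitor genes and that of 20 AP-1 and early-response genes each had 5 genes with a post-caerulein-joined peak and 3 with an untreated-joined peak. Over peaks the shares were 6.09% and 6.58% after caerulein and 4.55% in both lists in untreated spheroids. Cd44, a hyaluronan receptor of metaplastic ducts, had a post-caerulein peak of 8645 bp (chromosome 2, 102802851 to 102811495) over 3 untreated peaks of 4162, 1532 and 1869 bp, with gaps of 1812 and 28 bp. It only touched the rim of the untreated peak of 1869 bp and was part of a chain. Most of it lay outside the gene (102811141 to 102901669), with 1 end of Cd44 inside it. At the other end of the gene, 3 post-caerulein peaks of 1232, 5531 and 4272 bp stood under an untreated peak of 11769 bp, with a longest gap of 329 bp, so Cd44 was joined in both directions. Klf5, a factor of injured and neoplastic ducts, had 2 post-caerulein-joined peaks with gaps of 304 and 292 bp. These Klf5 peaks lay 8264 and 87765 bp from the nearest end of the gene. Ly6a (Sca-1) had 3 post-caerulein peaks under 1 untreated peak of 9919 bp. Among early genes Klf6 had a post-caerulein peak of 10267 bp over untreated peaks scored 898.25 and 3100, 1481 bp apart. The joined peak lay 15050 bp from the nearest end of Klf6.

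EGFR-MAPK genes numbered 8 on the post-caerulein and 5 on the untreated side, of 31, with 9 of 161 post-caerulein peaks (5.59%) and 5 of 149 untreated peaks (3.36%), near the shares over all assigned peaks. Btc, the EGFR ligand betacellulin, had 2 post-caerulein-joined domains 61351 and 75798 bp from its nearest end, with gaps of 1335 and 1252 bp. At Erbb3, a receptor of the EGFR family, the post-caerulein list had peaks of 1732 and 8978 bp, 1632 bp apart, and the untreated list 1 peak of 13257 bp. At Mapk3 (ERK1) the post-caerulein list had peaks of 5158 and 2126 bp, 1573 bp apart, and the untreated list 1 peak of 9708 bp. Egfr itself was joined in both directions in a chain of small peaks.

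NF-kB and cytokine genes numbered 6 on the post-caerulein and 7 on the untreated side, of 28, with 8.33% (3.88 to 15.2) of post-caerulein and 6.54% (2.67 to 13.02) of untreated peaks. Cxcl5, a neutrophil chemokine, had 3 post-caerulein-joined peaks, with gaps of 197, 541 and 1205 bp, and 1 untreated-joined peak with a gap of 35 bp. Those with gaps of 197 and 541 bp lay 49069 and 35328 bp from the nearest end of the gene. A post-caerulein peak of 8044 bp near Csf2 bridged 2382 bp between untreated peaks scored 276.40 and 356.62. At Csf3, the granulocyte growth factor gene, the post-caerulein list had peaks of 2067 and 5995 bp with scores of 182.09 and 3100, and the untreated list 1 peak of 12256 bp (chromosome 11, 98699654 to 98711909). An end of Csf3 and an end of the neighbouring Med24 both lay in the post-caerulein gap of 3466 bp, and the covered lengths with 10 kb on each side were 8062 bp after caerulein and 18213 bp in untreated spheroids.

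Among 26 Wnt and Hippo genes, 6 had a post-caerulein-joined and 4 an untreated-joined peak, over 10 of 130 (7.69%, 3.75 to 13.7) and 4 of 125 peaks (3.20%, 0.88 to 7.99). Wnt7a, an epithelial Wnt ligand, had a post-caerulein peak of 7841 bp across a gap of 1609 bp, and Lrp5, a Wnt co-receptor, one of 11314 bp across 1095 bp. Lrp5 also had a chain that counted in both directions, in which an untreated peak of 4410 bp overlapped post-caerulein peaks of 10403 and 3918 bp. Tead1, the DNA-binding partner of YAP, had 2 post-caerulein-joined and 1 untreated-joined peak, with gaps of 203 to 292 bp. Of the epithelial-mesenchymal and TGF-beta genes, 7 and 4 of 25 were joined, with 6.72% of post-caerulein and 4.35% of untreated peaks. Itgb6, the integrin subunit that activates latent TGF-beta, had 2 post-caerulein-joined domains inside the gene. The wider, of 12443 bp (chromosome 2, 60662406 to 60674848), stood over untreated peaks of 1292 and 7126 bp with scores of 81.05 and 3100, 3268 bp apart. The other, of 11147 bp, stood over untreated peaks of 2769 and 5099 bp, 1969 bp apart, and covered lengths with 10 kb on each side were 20433 and 24010 bp after caerulein against 13317 and 11181 bp in untreated spheroids.

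Interferon and STAT genes numbered 3 on the post-caerulein and 4 on the untreated side, of 26, with 4.95% of post-caerulein and 4.30% of untreated peaks. Socs3, a feedback inhibitor of STAT3, had a post-caerulein peak of 13858 bp over untreated peaks of 2186 and 9460 bp, 2238 bp apart. Ifngr1 had a post-caerulein peak of 13268 bp across 1648 bp, 58520 bp from the nearest end of the gene. That Ifngr1 peak was part of a chain, so that an untreated peak of 9914 bp there was joined as well, across 33 bp. Unfolded protein response genes gave 2 and 1 of 22, with 3.85% and 1.89% of peaks. At Chac1, a glutathione-degrading stress enzyme (chromosome 2, 119351242 to 119354326), the post-caerulein list had peaks of 3475 and 1813 bp with scores of 1506.13 and 66.79, and the untreated list 1 peak of 6792 bp. An end of the gene lay in the post-caerulein gap of 1517 bp. Cell cycle genes gave 3 and 3 of 24, with 7.14% and 4.17% of peaks and a chain at Cdk6 that counted in both directions.

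Housekeeping genes had joined peaks too, at 3 of 18 genes after caerulein and 5 in untreated spheroids, with 4 of 48 peaks (8.33%, 2.32 to 20.0) and 5 of 51 (9.80%, 3.26 to 21.4). At Rplp0, a ribosomal stalk protein gene, 2 post-caerulein peaks and 1 untreated peak of 1649 bp formed a chain. Actb had a post-caerulein peak of 5537 bp across a gap of 593 bp, 20290 bp from the gene. Lists of other cell types held few peaks. The endocrine list gave 0 of 13 post-caerulein and 1 of 13 untreated peaks, the endothelial list 0 of 39 and 2 of 39, both at Sox17, and the mesenchymal (15 and 12 peaks) and immune (12 and 11 peaks) lists none, with upper bounds of 21.8% and 26.5% for the mesenchymal and 26.5% and 28.5% for the immune list.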

How the data were processed

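H3K27ac was measured by chromatin immunoprecipitation and sequencing in 1 post-caerulein and 1 untreated library. Per the submitters' processing notes, Trimmomatic 0.38, Bowtie2 2.2.6, SAMtools and MACS 1.4 were used, with the builds GRCm38 and mm10, which name the same assembly. Peaks were listed per library; no source used here gives the caller's control library, options or threshold. The score that the authors deposited for each peak has no header and depends on depth. It is to be read only within its own list, also where scores of both lists are printed for 1 domain. No read counts are given, so depth is unknown.

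Overlaps of at least 1 bp were computed with pandas 2.3.3 and checked against bedtools 2.31.1 and on simulated data. Positions are 1-based on GRCm38. Gene ends (21887 protein-coding genes) and promoters (17492 of these genes) came from RefSeq tables of GRCm38.p6; start sites of the remaining genes were not used here. Exons, introns and untranslated regions were not analysed here. Shares carry exact (Clopper-Pearson) 95% intervals from scipy 1.17.1, for counting error only.

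The members, gene lists and tests were chosen with earlier results of these data known. Per direction, the text names the 8 domains with the longest gap, the 5 with most split peaks, the 5 highest-scored with a gap of 500 bp or more, up to 4 domains per list with a gap of 1 kb or more, and genes with an end in such a gap (up to 8). Some items are not reported here. Other named genes are said to be chosen after their values were seen or are examples of their list. The closing section gives the alternatives tried for the counts and for the gene assignment.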

Additional observations from a re-analysis of the deposited data

How the results depend on the processing

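All alternatives were planned. The post-caerulein list had more joined peaks than the untreated list under each of the 10 alternatives for the counts, by 60 to 315 peaks against 177. The lists differ in size, and as a share of eligible peaks the post-caerulein value was also the higher under each. The intervals of both shares overlapped in the main setting, under the 10 kb width limit, with the X chromosome included and without scores under the median. In the last they were 1.92% (1.73 to 2.13) and 1.63% (1.45 to 1.83). Merging peaks less than 500 bp apart left 916 post-caerulein-joined and 601 untreated-joined peaks (difference 315), with a gene end in the gap of 2.51% and 3.83%. Merging within 1 kb left 726 and 466, with 3.17% and 3.65%. Without the lowest 25% of scores there were 813 and 681, and the post-caerulein end share was 1.48%. Without scores under the median there were 351 and 291 (difference 60), with 1.99% and 2.41%. The difference was 103 under a 10 kb width limit and 283 with no limit on width. Requiring 50% of each split peak inside the joined one gave 1169 and 938, equal numbers of peaks 1492 and 1253, and leaving out chains 1173 and 990. A 10 kb assignment limit gave 683 and 638 genes, and 30 and 27 list genes. Assignment by gene body gave 34 list genes on the post-caerulein side. Without scores under the median there were 319 and 267 genes, and 17 and 13 list genes. Merging within 500 bp left 531 genes and 20 list genes on the untreated side. Fewer peaks enter after merging or score limits, and the cause of the other changes was not tested. Of 62 named domains, 50 were still joined after merging within 500 bp, 47 without the lowest 25% of scores, and 23 of the 61 that could be scored without scores under the median. The last limit left 1 split peak at Car12, Itgb6 (the 12443 bp domain), Cd44 and Csf3. No paired analysis was possible because only 1 library stands for each condition, and none could be left out.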

Other observations

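Other genes had an end in a long gap. In domains joined after caerulein, gaps of 1323 bp at Pnn, a splicing-associated desmosome protein gene, and 1004 bp at Plec, which encodes the cytolinker plectin, held an end of the gene. In domains joined in untreated spheroids the post-caerulein gap held an end at Epop (2540 bp), Pdss2 (2511 bp), Elovl1 and the neighbouring Cdc20 (2100 bp), Rpl3 (1703 bp) and Fut4 (1333 bp). Elovl1 encodes a fatty acid elongase and Cdc20 an activator of the anaphase-promoting complex. At Epop the post-caerulein peaks had scores of 119.02 and 496.65, at percentiles 20.73 and 48.96 of their own list. The untreated peak over them had 3100, at percentile 77.65 of its own list. At Fut4, a fucosyltransferase gene, the post-caerulein peaks of 6636 and 10267 bp together exceeded the untreated peak of 8293 bp, and covered lengths with 10 kb on each side were 20180 bp after caerulein and 17386 bp in untreated spheroids.

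Further list genes had joined peaks with shorter gaps and were picked after their values were seen. Tff3, a trefoil factor gene, had a post-caerulein peak of 5438 bp with a score of 3100 over untreated peaks scored 88.84 and 203.11, 453 bp apart. Hmga2, an oncofetal chromatin protein gene, had a post-caerulein peak of 7142 bp over untreated peaks of 969 and 2330 bp, whose span it exceeded by 3475 bp. Cd34, on none of the lists, had 3 post-caerulein-joined peaks, with gaps of 133, 600 and 254 bp, and no untreated-joined one. These peaks lay 57975, 13915 and 28103 bp from the nearest end of the gene. Il33, an alarmin gene, had post-caerulein peaks scored 882.11 and 172.56, 400 bp apart, under an untreated peak of 4966 bp. Tnfaip3 was assigned a post-caerulein-joined peak of 11648 bp (chromosome 10, 18927555 to 18939202). In a separate domain assigned to Tnfaip3, 1 untreated peak of 1254 bp (19000778 to 19002031) overlapped post-caerulein peaks of 1041 and 15533 bp. Near Sox17, an endoderm and endothelial factor gene, the post-caerulein peaks of 2569 and 1175 bp had scores of 154.78 and 71.27, at percentiles 26.32 and 8.72 of their own list. The untreated peak of 5871 bp over them had 3100, at percentile 77.65 of its own list.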
